A study of Prunus sibirica with 30 samples.

Results

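Transcript levels in flowers of the frost-hardy Siberian apricot (Prunus sibirica) clone CR_453 were compared with those of the frost-sensitive clone NC_371 after 15 min at -4 °C. The libraries were those whose column names carry the clone prefix and 15 min, 3 of CR and 3 of NC, which is 6 of the 30 libraries of the study, and all 143 complete genes of the table used here entered. The other groups, which share the fit, are the same clones at 0 h, 30 min, 1 h and 2 h of the same treatment, 3 libraries each. The labels class CR as strong and NC as weak in frost resistance and give the tissue as the pistil at bloom, while RNA extraction is described for flowers and flower buds. Each resistance class was represented by 1 clone. No library comes from flowers kept for 15 min at another temperature, so effects of frost and of the time since sampling cannot be told apart. Nothing in the labels ties the 3 libraries of a group to separate trees. Each p-value therefore reflects only the spread among libraries of a group, which the fit pools over all groups. That spread may be technical.

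Open flowers are among the most frost-sensitive organs of stone fruit trees, because ice in the pistil kills the ovule. Plants answer falling temperature within minutes through calcium signals and transcription factors of the CBF family, and later through dehydrins and other late embryogenesis abundant (LEA) proteins, membrane and water-channel changes, and polyamines, small polycations made from S-adenosylmethionine. Translation slows in the cold, and ribosomal proteins, which build the small (40S) and large (60S) subunits of the ribosome, are among the gene groups known to respond. The table used here held abundant transcripts, among them 69 ribosomal protein genes, and no CBF or other transcription factor of the lists was among its 143 genes.

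Levels are in FPKM (fragments counted on a gene, divided by its length and by a library size). The library size implied by the values was not a whole number in any library of 15 min, and its derivation was not given. Differences are CR minus NC on the log2(FPKM + 1) scale with standard errors (SE) from limma. Values at 15 min ran between 308 and 4194 FPKM. The FPKM values came from 2665 to 172255 reads each, so that the counting error of the least covered value was 1.94%. The median FPKM over the 143 genes was 898, 801 and 846 in the CR libraries and 701, 819 and 765 in the NC libraries. These groups overlapped, and the library medians differed by 0.16 log2 units (exact permutation test, two-sided, p = 0.2, with 0.1 the smallest p that 3 against 3 allows). NC replicate 1 and CR replicate 2, the lowest of each group, were least like their group. Because a shift of a whole library moves every gene, the tests were also run with the library's own median subtracted. Differences obtained that way are called relative.

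The tissue could be checked only in part. Members of the lists were found by name among the abundant genes of the table, so their presence does not test the tissue. For green tissue, which sepals and the ovary wall contain, these were 9 light-harvesting, photosystem, Rubisco, ferredoxin and CP12 genes. They summed to 11019, 8912 and 9874 FPKM in CR and to 6560, 10793 and 9659 FPKM in NC. The sums overlapped (exact permutation p = 0.6), and the lowest was NC replicate 1. No pistil or petal marker of the lists was among the 143 genes. Olee1-like protein, the 1 pollen and anther marker, had 761, 682 and 709 FPKM in CR and 638, 738 and 657 FPKM in NC. Whether the mix of tissues contributed to any difference between the clones was not tested, and in whole flower tissue fewer cells of a type and less RNA per cell cannot be told apart.

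At 15 min CR had higher transcript levels than NC for genes of the ribosome, a photosystem II subunit, a microtubule protein and a ubiquitin-like protein. It had lower levels of an aspartyl protease, both S-adenosylmethionine decarboxylases, a plasma membrane aquaporin and a gene annotated as ART3. Of 143 genes, 21 passed an adjusted p of 0.05 (14.7%; limma with Benjamini-Hochberg adjustment over all genes), 16 higher in CR (11.2%) and 5 lower (3.50%). The libraries of the clones did not overlap for 54 genes (37.8%), with CR higher for 46 (32.2%) and lower for 8 (5.59%). The median difference over all genes was 0.16. On the relative scale the calls came to 34 (23.8%), with 15 higher (10.5%) and 19 lower (13.3%), and 14 of the 16 higher genes and all 5 lower genes were called there too. The number of calls rested on single libraries, and the calls lost were mainly of genes higher in CR. It was 5 without CR replicate 1 (1 higher, 4 lower) and 6 without NC replicate 3 (3 higher, 3 lower). Without NC replicate 1 and CR replicate 2 together it was 7 (2 higher, 5 lower). AED3, ART3 and the decarboxylase on chromosome 3 passed in all 14 alternatives tried.

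**Figure D1:**
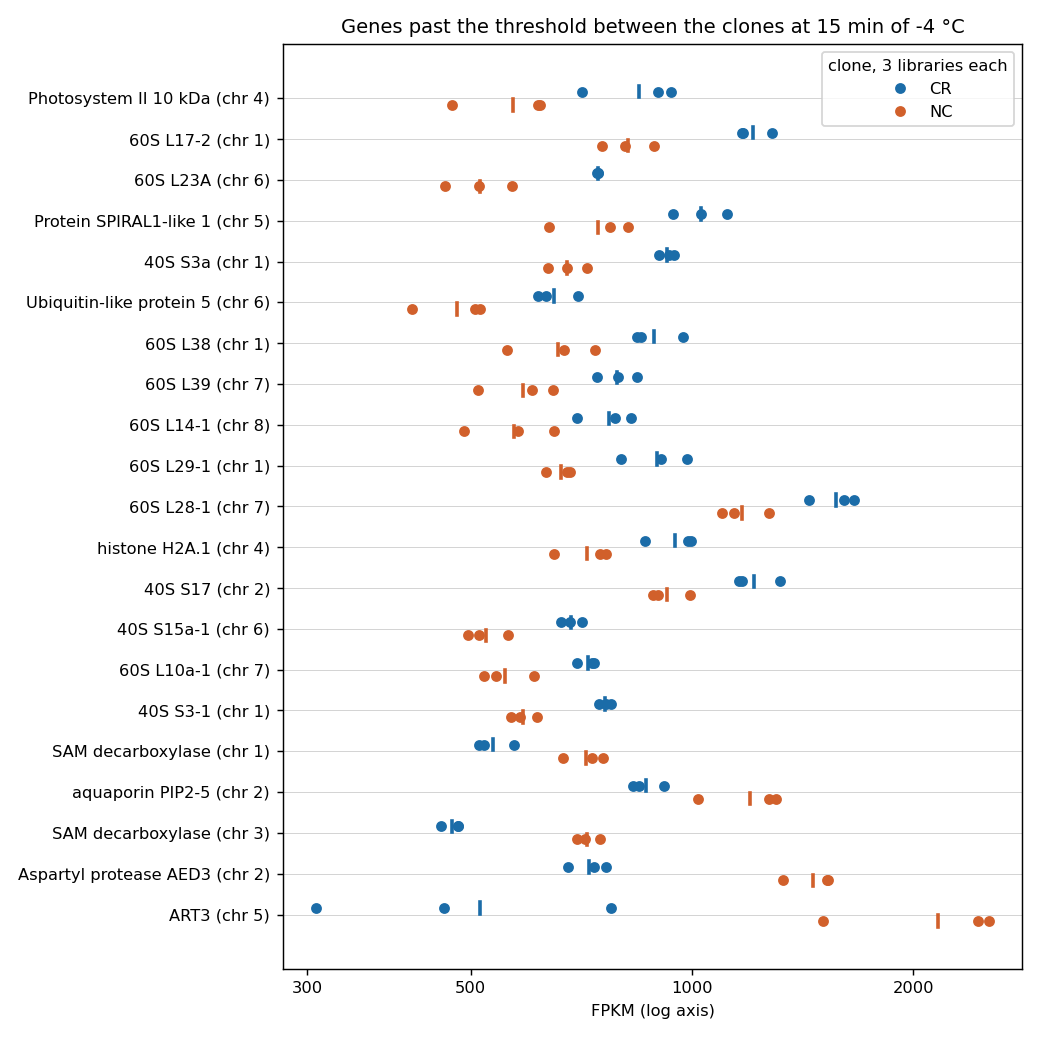
FPKM (log axis) of the 21 genes past the threshold at 15 min, one point per library and a short vertical line at the mean of 3 libraries, with CR above NC for each gene. The CR and NC points of a gene do not overlap in any row. The lower 5 rows, where CR lies to the left, include ART3 with means of 515 FPKM in CR and 2164 FPKM in NC.

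The genes lower in CR were led in size by PaF106G0500019452.01 (chromosome 5, 7804224 to 7808425, in the coordinates of the deposited table), whose best protein match is ART3, a putative yeast reading frame that lies opposite a ribosomal RNA gene. It had 308, 460 and 776 FPKM in CR and 2536, 2449 and 1506 FPKM in NC. Every CR library was below every NC library, with means of 515 ± 238 FPKM in CR and 2164 ± 571 FPKM in NC (SD, n = 3 each). On the log scale the level was 4.39-fold lower in CR (difference -2.13, SE 0.37, limma adjusted p = 0.000289). Its reads made up 0.0580% to 0.146% of the scaled library size in CR and 0.283% to 0.477% in NC. The amount of ribosomal RNA in the libraries was not measured, and its part in this difference was not tested.

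AED3 (PaF106G0200007260.01, chromosome 2, 4037081 to 4039588) encodes an aspartyl protease of the cell wall space, known in Arabidopsis from systemic immunity. Its level was 764, 735 and 678 FPKM in CR and 1332, 1529 and 1530 FPKM in NC. CR lay at about the same level in its 3 libraries, far below the lowest NC library, with a mean of 726 ± 44.1 FPKM in CR and 1464 ± 114 FPKM in NC (SD, n = 3 each). The difference was -1.01 (SE 0.12, limma adjusted p = 3.16e-07), and relative to the library median it was -1.17. The other protease in the table, the cysteine protease RD19A (named for its induction by drying in Arabidopsis), had 497, 439 and 474 FPKM in CR and 606, 684 and 725 FPKM in NC. These libraries did not overlap either, but the difference of -0.51 did not pass (limma adjusted p = 0.0909), while the relative difference of -0.67 did (adjusted p = 0.0405). That relative call was lost whichever of the 6 libraries was left out. With only these 6 libraries in the fit, the difference of -0.51 passed (limma adjusted p = 0.0314).

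S-adenosylmethionine decarboxylase makes the aminopropyl donor for the polyamines spermidine and spermine, and both of its genes in the table were lower in CR than in NC. The copy on chromosome 3 (PaF106G0300011722.01, 20154855 to 20157115) had 456, 481 and 480 FPKM in CR and 716, 697 and 750 FPKM in NC. The copy on chromosome 1 (PaF106G0100003565.01, 25259309 to 25262021) had 513, 574 and 521 FPKM in CR and 668, 732 and 756 FPKM in NC. All CR values were below all NC values for both copies. The differences were -0.61 on chromosome 3 (SE 0.12, limma adjusted p = 0.00164) and -0.42 on chromosome 1 (SE 0.11, adjusted p = 0.0139), and the copy on chromosome 1 did not pass without NC replicate 3 (adjusted p = 0.0673) or without CR replicate 1 (adjusted p = 0.0628). The deposited values do not say how reads shared by such copies were counted. Adenosylhomocysteinase, which clears the by-product of methylation reactions, completes the list of S-adenosylmethionine and polyamine genes. It had 830, 872 and 831 FPKM in CR and 938, 986 and 973 FPKM in NC, again without overlap, with a difference of -0.19 that did not pass (limma adjusted p = 0.188) and a relative difference of -0.35 that did (adjusted p = 0.0218). Of the 3 genes of this list 2 were therefore lower in CR, against 3.50% of all genes, and 3 on the relative scale, against 13.3% of all genes.

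Of the 5 water channels 4 had values below 0, and 1 passed as lower, against 3.50% of all genes. PIP2-5 (PaF106G0200009516.01, chromosome 2, 21257413 to 21260728), a channel of the plasma membrane, had 917, 833 and 846 FPKM in CR and 1019, 1302 and 1276 FPKM in NC. The highest CR library was below the lowest NC library, and the difference was -0.46 (SE 0.13, limma adjusted p = 0.0142), which did not pass without NC replicate 3 (-0.41, adjusted p = 0.0694). TIP1-1, the channel of the vacuole membrane, had 1165, 992 and 1056 FPKM in CR and 1092, 1716 and 1690 FPKM in NC. NC replicate 1 lay among the CR libraries, and the difference of -0.46 passed without that library (-0.67, limma adjusted p = 0.0222) but not with it (adjusted p = 0.0911). The differences of PIP1-4, PIP1-2 and PIP2-7, further plasma membrane channels, lay between -0.09 and 0.06 and did not pass. On the relative scale 3 of the 5 were lower in CR, against 13.3% of all genes, at -0.62 for PIP2-5, -0.61 for TIP1-1 and -0.21 for PIP1-2.

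Ribosomal proteins gave 12 of the 16 genes higher in CR, and none of the 69 was lower, against 11.2% higher and 3.50% lower among all 143 genes. By subunit, 4 of 26 genes of the 40S subunit and 8 of 43 of the 60S subunit passed. The medians of the differences were 0.19 for the 40S and 0.21 for the 60S, against 0.16 over all 143 genes, and the libraries did not overlap for 30 of the 69, with CR higher in each, against 32.2% of all genes. On the relative scale 12 of 69 were higher and 3 lower, against 10.5% and 13.3% of all genes, and the median of the 69 was 0.05. The ribosomal genes took 40.6% ± 0.0303 of the reads of the table in CR and 36.6% ± 0.861 in NC (SD, n = 3 each; exact permutation p = 0.1, the smallest possible).

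Among the 60S genes, L17-2 (PaF106G0100002777.01, chromosome 1, 20656297 to 20658959) had 1286, 1174 and 1170 FPKM in CR and 811, 888 and 755 FPKM in NC. Its difference of 0.57 (SE 0.14, limma adjusted p = 0.00877) did not pass without NC replicate 3 (adjusted p = 0.0593) or CR replicate 1 (adjusted p = 0.0574). L23A (PaF106G0600022381.01, chromosome 6, 5586126 to 5588333), a protein at the exit of the tunnel for the growing peptide, had 746, 746 and 744 FPKM in CR and 462, 570 and 513 FPKM in NC. The CR libraries were within a few FPKM of each other, all above NC, and the difference was 0.54 (SE 0.12, limma adjusted p = 0.00336). It passed without any single library and failed without NC replicate 1 and CR replicate 2 together (0.46, adjusted p = 0.0734). L38, L39, L14-1 and L29-1 had differences of 0.43 to 0.44, and of the 14 alternatives L38 and L14-1 passed in 10 each and L29-1 in 12. Of these, L39, another protein of the exit tunnel, lay nearest to the threshold, with 841, 742 and 794 FPKM in CR and 511, 647 and 607 FPKM in NC (limma adjusted p = 0.0493), and it passed in 6 of the 14 alternatives. S3a of the small subunit had 932, 946 and 902 FPKM in CR and 675, 719 and 636 FPKM in NC, without overlap (0.45, SE 0.12, limma adjusted p = 0.0139), but did not pass without NC replicate 3 (adjusted p = 0.0673) or CR replicate 1 (adjusted p = 0.059).

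The ribosomal genes lower on the relative scale, named after their values were seen, were L10 on chromosome 8 (-0.48), S15a-1 on chromosome 2 (-0.20) and L27a-3 (-0.17). For L10 and S15a-1 a second gene of the same name lay elsewhere, and the S15a-1 gene on chromosome 6 passed in the other direction, with 710, 682 and 663 FPKM in CR and 496, 562 and 513 FPKM in NC. Of 6 genes listed as translation factors and proteins bound to the ribosome none passed on either scale, against 14.7% of all genes and 23.8% on the relative scale. So few genes cannot tell this from those shares. Their differences lay between -0.00 and 0.17. The median of these 6 was 0.12, and -0.04 relative to the library median. Elongation factor 1-alpha, which delivers aminoacyl-tRNA, had 689, 719 and 732 FPKM in CR and 692, 747 and 708 FPKM in NC for the gene on chromosome 6.

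**Figure D2:**
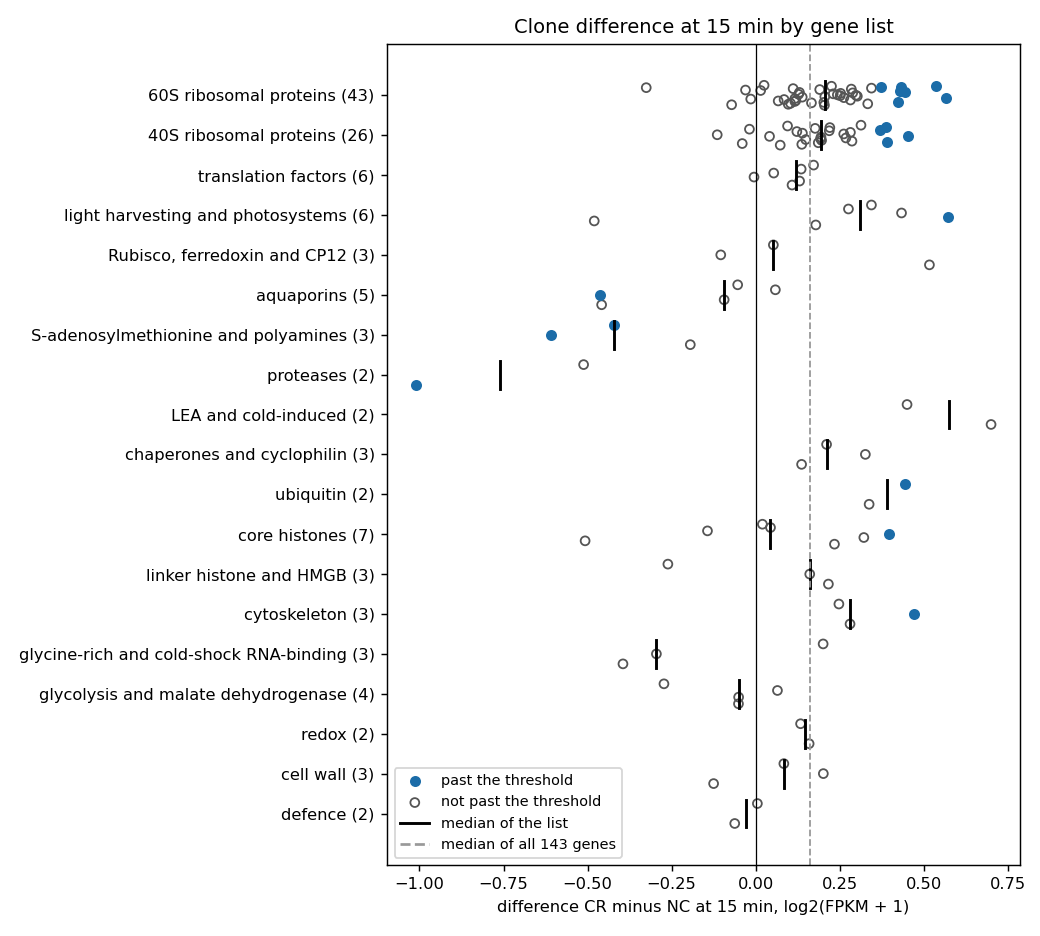
Difference between the clones at 15 min (CR minus NC, log2(FPKM + 1)) for the members of 19 gene lists, one point per gene, with the number of members in parentheses, the median of each list as a black bar and the median of all 143 genes, 0.16, as a dashed line. The filled points, past the threshold, lie to the right in the ribosomal, photosystem, ubiquitin, histone and cytoskeleton lists and to the left for aquaporins, S-adenosylmethionine and polyamines, and proteases.

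Among photosynthesis genes, the 10 kDa polypeptide of photosystem II (PsbR), a protein near the oxygen-evolving complex, had the highest difference of all genes called. It had 899, 710 and 938 FPKM in CR and 472, 618 and 621 FPKM in NC, without overlap, and the difference was 0.57 (SE 0.16, limma adjusted p = 0.0168). The call did not hold without NC replicate 1 (0.44, adjusted p = 0.101), CR replicate 1 (0.53, adjusted p = 0.092) or CR replicate 3 (0.50, adjusted p = 0.0758), and the relative difference of 0.42 did not pass (adjusted p = 0.0528). The relative difference passed in 6 alternatives, among them centring outside the ribosomal proteins (0.47, adjusted p = 0.0162) and on the mean log2 level (0.46, adjusted p = 0.0252). Of the 6 light-harvesting and photosystem genes this was the 1 that passed, a share near the 14.7% of all genes, and the list median was 0.31. Oxygen-evolving enhancer protein 1 had 805, 675 and 711 FPKM in CR and 392, 668 and 597 FPKM in NC (0.43, limma adjusted p = 0.0538), and it passed without NC replicate 2 (0.59, adjusted p = 0.019). The chlorophyll a-b binding protein of LHCII type I went the other way, with 1100, 839 and 1011 FPKM in CR and 1057, 1609 and 1490 FPKM in NC. Its difference of -0.48 did not pass (adjusted p = 0.0909), but its relative difference of -0.64 did (adjusted p = 0.000212), as did the plain one without NC replicate 1 (-0.66, adjusted p = 0.0288). The small chain of Rubisco, the enzyme that fixes carbon dioxide, had 2198, 1851 and 2087 FPKM in CR and 909, 1880 and 1693 FPKM in NC. The low value is again NC replicate 1, the groups overlapped, and the difference of 0.52 did not pass (limma adjusted p = 0.098) unless NC replicate 2 was left out (0.72, adjusted p = 0.0289).

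Outside ribosome and chloroplast 3 genes were higher in CR. SPIRAL1-like 1, which binds microtubules and guides cell growth in Arabidopsis, had 1115, 942 and 1030 FPKM in CR and 639, 819 and 775 FPKM in NC (0.47, SE 0.15, limma adjusted p = 0.0324). Ubiquitin-like protein 5, whose yeast relative acts in pre-mRNA splicing, had 700, 618 and 633 FPKM in CR and 417, 514 and 507 FPKM in NC (0.44, SE 0.12, limma adjusted p = 0.0142). Histone H2A.1 of the nucleosome core had 999, 987 and 863 FPKM in CR and 649, 750 and 763 FPKM in NC (0.40, SE 0.14, limma adjusted p = 0.046). The libraries did not overlap for any of these genes. Without CR replicate 1 none of the 3 passed (adjusted p 0.092 for Ubiquitin-like protein 5, 0.139 for SPIRAL1-like 1 and 0.152 for H2A.1), and the same held without NC replicate 1. Of the 14 alternatives Ubiquitin-like protein 5 passed in 11, SPIRAL1-like 1 in 9 and H2A.1 in 8. The tubulins, the subunits of microtubules, had differences of 0.28 (alpha chain) and 0.25 (beta-1 chain), which did not pass although their libraries did not overlap. Polyubiquitin, the precursor of ubiquitin chains, had a difference of 0.34 (limma adjusted p = 0.133).

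Of the 7 core histone genes H2A.1 was the 1 that passed, about the 14.7% of all genes; the list median was 0.04, and -0.11 on the relative scale. An H4 gene on chromosome 6 (PaF106G0600024535.01, 23183579 to 23184037) had 817, 561 and 730 FPKM in CR and 757, 1071 and 1186 FPKM in NC. These values overlapped at NC replicate 1, and the difference of -0.51 did not pass (limma adjusted p = 0.0909), while the relative difference of -0.66 did (adjusted p = 0.000439), as did the plain one without NC replicate 1 (-0.70, adjusted p = 0.0288). H1.2, the linker histone, was lower on the relative scale only (-0.42).

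None of the 2 LEA and cold-induced, 1 metallothionein and 3 chaperone and cyclophilin genes passed on either scale. Among all genes 14.7% passed, and 23.8% on the relative scale. Lists this small cannot tell an absence of calls from these shares. ARG2, an LEA protein, had 980, 769 and 772 FPKM in CR and 343, 587 and 670 FPKM in NC. The libraries did not overlap and the difference of 0.70 was the highest of the 143, but its spread between libraries was wide (SE 0.40, limma adjusted p = 0.214). RCI2B, a small membrane protein induced by cold in Arabidopsis, had 1185, 1488 and 939 FPKM in CR and 961, 814 and 828 FPKM in NC, with overlap (0.45, adjusted p = 0.214). The type 2 metallothionein, a metal-binding protein, had 1179, 952 and 873 FPKM in CR and 610, 605 and 925 FPKM in NC (0.51, SE 0.34, adjusted p = 0.297). Chaperones differed less: the values were 0.33 for heat shock cognate 70 kDa protein, 0.21 for heat shock protein 90-2 and 0.14 for cyclophilin, a prolyl isomerase. Heat shock cognate 70 kDa protein passed when only the libraries of 15 min were fitted (limma adjusted p = 0.0402).

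GRP1A and Glycine-rich protein 2 bind RNA and belong to families that are cold-induced in other plants. GRP1A had 1742, 945 and 1992 FPKM in CR and 1059, 2486 and 2832 FPKM in NC. Its low values were CR replicate 2 and NC replicate 1, so the groups overlapped, and the difference of -0.39 (SE 0.37) did not pass (limma adjusted p = 0.473). Glycine-rich protein 2, which carries a cold-shock domain, had a difference of -0.30 that did not pass and a relative difference of -0.45 that did (adjusted p = 0.0481). Aldolase of glycolysis (-0.43) and polyphenol oxidase, the enzyme of tissue browning (-0.32), were likewise lower on the relative scale only. Centring on the median of the genes outside the ribosome gave 17 higher and 12 lower calls, and centring on the mean log2 level gave 20 higher and 13 lower, against 15 and 19 with the median of all genes.

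The clone difference at 15 min was then set against the one at 0 h, within the same fit. Most genes that changed had a smaller excess in CR at 15 min than at 0 h: 61 genes passed (42.7%), of which 60 had a lower difference (42.0%) and 1 a higher one (0.699%). The median of all genes was 0.16 at 15 min and 0.59 at 0 h, and the median change was -0.42. Of the 69 ribosomal genes 37 had a lower difference, with medians of the change of -0.49 for the 40S and -0.52 for the 60S. On the relative scale 67 genes passed (46.9%), with 28 higher (19.6%) and 39 lower (27.3%). The count of 61, without the library median subtracted, rested on single libraries. It was 26 without CR replicate 1 of 0 h, 38 without CR replicate 2 of 15 min and 39 without NC replicate 2 of 15 min.

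GRP1A had the largest change, -1.47 (SE 0.52, limma adjusted p = 0.025). Its mean was 1560 ± 547 FPKM in CR and 2126 ± 940 FPKM in NC at 15 min, and 3545 ± 1534 FPKM in CR and 1608 ± 295 FPKM in NC at 0 h (SD, n = 3 each). CR was thus above NC at 0 h and overlapped it at 15 min. The call failed without CR replicate 1 of 0 h, which at 5301 FPKM was the highest library (-1.14, adjusted p = 0.121), without NC replicate 3 of 0 h (adjusted p = 0.0692), without CR replicate 2 (adjusted p = 0.0935), NC replicate 2 (adjusted p = 0.0746) or NC replicate 3 (adjusted p = 0.0734) of 15 min, and on the relative scale (-1.11, adjusted p = 0.0524).

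Elongation factor 1-alpha on chromosome 1 had 560, 524 and 432 FPKM in CR and 392, 550 and 526 FPKM in NC at 15 min. At 0 h it had 1363, 830 and 851 FPKM in CR and 426, 382 and 375 FPKM in NC. The clones overlapped at 15 min and stood apart at 0 h, and the change of the difference was -1.27 (SE 0.24, limma adjusted p = 0.000887; relative -0.91). The 6 kDa subunit of mitochondrial ATP synthase behaved alike, at 634 ± 100 FPKM in CR and 600 ± 17.2 FPKM in NC at 15 min and 1028 ± 239 FPKM in CR and 471 ± 41.0 FPKM in NC at 0 h (change -1.04, adjusted p = 0.000428). The S30 gene of the small subunit on chromosome 3 changed by -1.05 (limma adjusted p = 0.01), and did not pass without CR replicate 1 of 0 h (-0.78, adjusted p = 0.0617).

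Of the 22 genes with a change above 0, without the library median subtracted, 1 passed as higher at 15 min than at 0 h, adenosylhomocysteinase. Its means were 844 ± 23.8 FPKM in CR and 966 ± 24.9 FPKM in NC at 15 min, and 698 ± 48.3 FPKM in CR and 1126 ± 73.4 FPKM in NC at 0 h. The gap between the clones was smaller at 15 min, and the change was 0.50 (SE 0.15, limma adjusted p = 0.0112). This call held in all 21 alternatives, and on the relative scale the change was 0.86. The changes of AED3 (0.14), the decarboxylase genes (0.02 on chromosome 3 and 0.19 on chromosome 1) and PIP2-5 (0.08) did not pass without the library median subtracted. On the relative scale 2 of the 3 S-adenosylmethionine and polyamine genes passed with a higher difference at 15 min. So did 1 of the 2 proteases and 1 of the 5 aquaporins, against 19.6% of all genes. ART3, with -2.13 at 15 min and -1.07 at 0 h, changed by -1.06, which did not pass (limma adjusted p = 0.107).

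**Figure D3:**
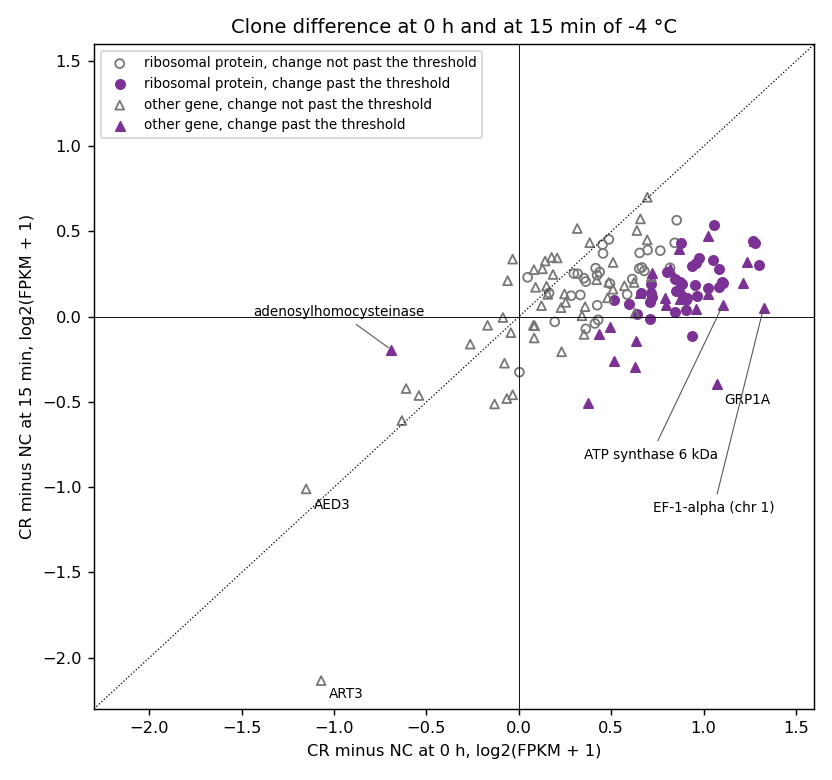
Difference between the clones at 15 min (CR minus NC, vertical axis) against that at 0 h (horizontal axis), both in log2(FPKM + 1), one point per gene, with ribosomal proteins as circles, other genes as triangles, and filled purple symbols where the change between the times passed the threshold. The dotted line marks equal differences: most filled points lie below it and right of 0, and adenosylhomocysteinase lies above it.

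Against the mean difference at the other 4 times, 58 genes passed (40.6%), 57 with a lower difference at 15 min (39.9%) and 1 with a higher one (0.699%). The median of all genes was 0.16 at 15 min, against 0.59 (0 h), 0.28 (30 min), 0.29 (1 h) and 0.84 (2 h). The library medians, which overlapped at 15 min with a difference of 0.16, differed by 0.52 (0 h), 0.23 (30 min), 0.25 (1 h) and 0.73 (2 h), with no overlap at these times (exact permutation p = 0.1 each, the smallest possible). Ribosomal genes gave 40 of the 57 lower ones. On the relative scale 38 genes passed (26.6%), 10 higher (6.99%) and 28 lower (19.6%). The count of 58, without the library median subtracted, depended on the libraries of 15 min. It was 3 without NC replicate 2, 15 without CR replicate 2, 26 without NC replicate 3 and 38 without CR replicate 3.

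Elongation factor 1-alpha on chromosome 1 was lower at 15 min than over the other times by -0.97 (limma adjusted p = 0.00275) and passed in all 38 alternatives. ART3 (-1.14, limma adjusted p = 0.0362), GRP1A (-1.08, adjusted p = 0.0394) and the acidic protein P3-1 of the ribosomal stalk (-0.76, adjusted p = 0.0145) also passed. They failed without NC replicate 2 of 15 min (adjusted p = 0.136 for ART3, 0.141 for GRP1A and 0.0945 for P3-1). ART3 also failed without NC replicate 1 (adjusted p = 0.0677), CR replicate 1 (0.118) or CR replicate 2 (0.102) of 15 min, and P3-1 without NC replicate 3 (0.0555) or CR replicate 2 (0.071). GRP1A failed in 10 of the 38 alternatives, with adjusted p up to 0.192 without CR replicate 2. The 1 higher gene was polyubiquitin, at 748 ± 75.2 FPKM in CR and 591 ± 50.1 FPKM in NC at 15 min, with a difference of 0.34. At the other times its difference was -0.03 (0 h), -0.12 (30 min), 0.22 (1 h) and -0.72 (2 h). It passed at 0.50 (limma adjusted p = 0.0292) and failed when any of 5 single libraries of 15 min was left out, with adjusted p between 0.0527 for NC replicate 3 and 0.0781 for CR replicate 1.

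**Figure D4:**
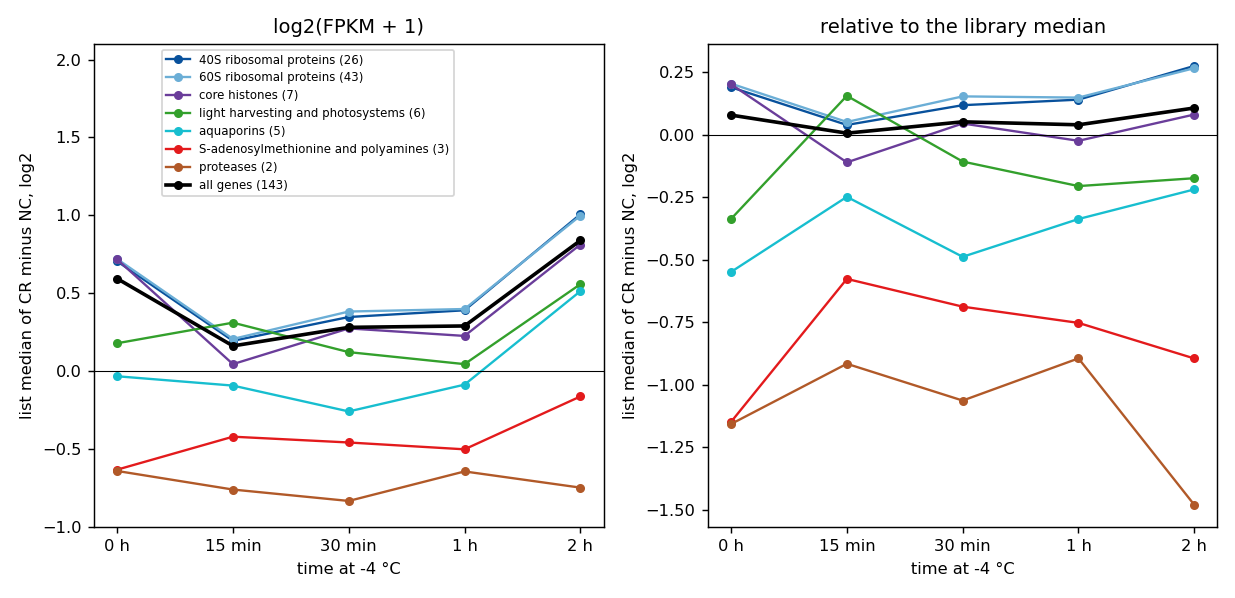
Median difference between the clones (CR minus NC) of 7 gene lists and of all 143 genes at each time at -4 °C, on the log2(FPKM + 1) scale on the left and relative to the library median on the right, with times spaced evenly. On the left the ribosomal lists lie at 0.19 and 0.21 at 15 min, their lowest point, and S-adenosylmethionine and polyamine genes and proteases lie below 0 at all 5 times.

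The genes called at 15 min were mostly called at the other times too, in other libraries of the same clones. Of the 16 genes higher at 15 min, 16 were higher at 0 h, where 70.6% of all genes were, 14 at 30 min (39.9% of all genes), 13 at 1 h (41.3%) and 16 at 2 h (84.6%). These are 15.8%, 24.6%, 22.0% and 13.2% of the genes higher at those times. The 5 lower genes were lower at 0 h, 30 min and 1 h, where 4.20%, 6.29% and 6.29% of all genes were, and 3 of them at 2 h (5.59%). The difference of AED3 was -1.15 (0 h), -1.01 (15 min), -0.91 (30 min), -1.06 (1 h) and -0.58 (2 h). The decarboxylase gene on chromosome 3 stayed between -0.61 and -0.72 at all times, and that on chromosome 1 had a value of 0.16 at 2 h. Over the 143 genes the differences at 15 min correlated with those at 30 min at Pearson r = 0.75 and with those at 2 h at r = 0.41, a description across genes, which are not independent.

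**Figure D5:**
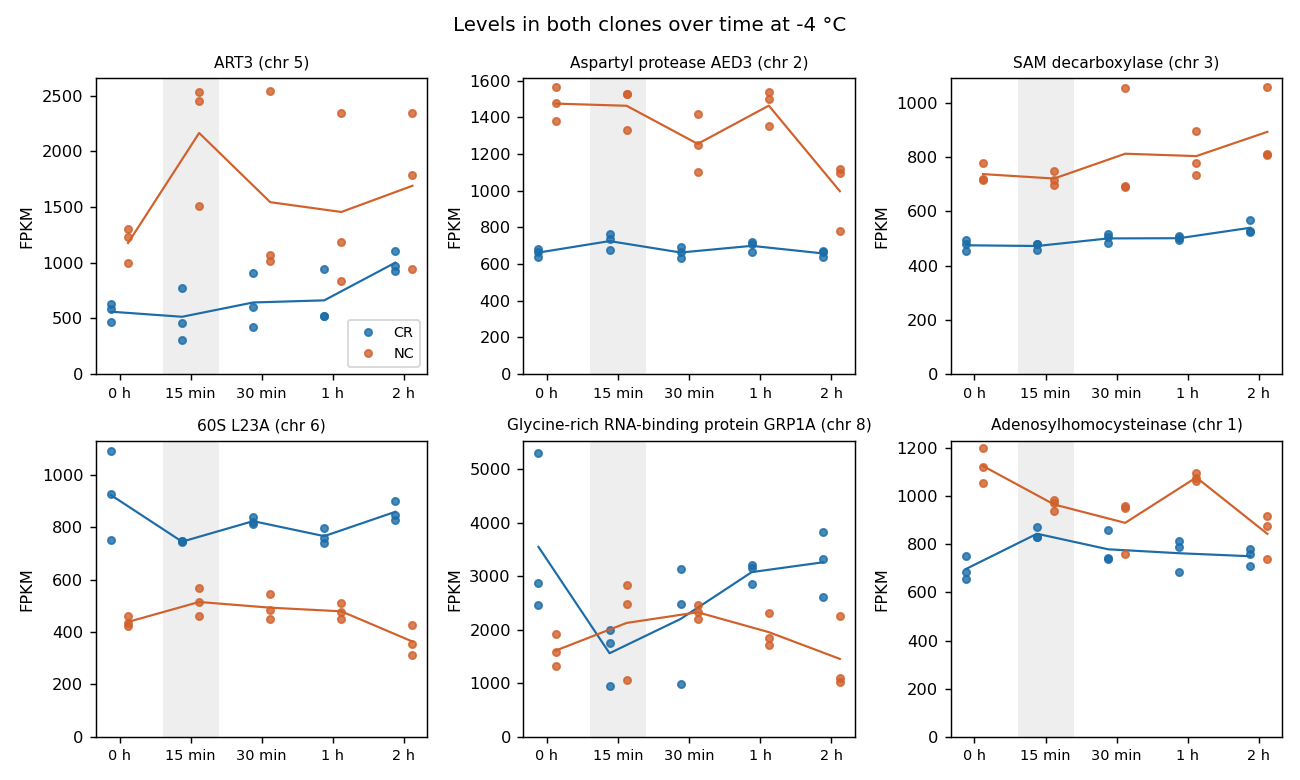
FPKM of 6 genes in all 30 libraries over time at -4 °C, one point per library, with lines through the means of 3 libraries, CR left of NC at each time, and 15 min shaded. For AED3 and the decarboxylase on chromosome 3 the CR points lie below the NC points at all 5 times, for L23A above them, and for GRP1A the clones overlap at 15 min, with means of 1560 FPKM in CR and 2126 FPKM in NC.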

How the data were processed

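The values are FPKM that the authors deposited, 1 column per library, for RNA from flowers of both clones. HISAT2, Picard, SAMtools 0.1.18 and GATK appear in the submitters' processing notes without role or order; read counter, annotation and build: not given in the sources used here. Of 144 genes in the table used here, 1 was incomplete and left out. The 143 others had mean FPKM between 594 and 3835 over the 30 libraries, and less abundant genes were not analysed. Shares of all genes and library medians therefore refer to these abundant genes. Gene names are the best protein match in the deposited description (137 of 143), and 27 genes share a name. Multiplied by gene length, all 858 values of the 6 libraries at 15 min were whole multiples of 1 read (tolerance 1e-06), giving 2444311 to 2846079 reads per library in these genes.

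With 1 mean per group (10 groups), log2(FPKM + 1) of all 30 libraries was modelled with limma 3.58.1 in R 4.3.3 (mean-variance trend, 28.1 moderated degrees of freedom, two-sided tests, Benjamini-Hochberg adjustment over 143 genes, threshold 0.05). The fit was first tested on simulated data, whose spread was drawn gene by gene without a shift of whole libraries. A filter of FPKM 1 in 3 libraries removed 0 genes. Alternatives were the pseudocount, the filter, the trend, the centring, a replicate block, voom weights on the recovered reads and leaving out libraries. Genes named were the 10 with the largest differences past the threshold each way, 5 on the relative scale, 4 for each change between times, and members of lists with at most 8 genes. The members and the 28 lists, of which 3 had no gene in the table, were chosen with earlier results of these data known.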

Additional observations from a re-analysis of the deposited data

Results flagged for a closer look

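The clone difference at 15 min was not the same as at other times for many genes, by the test of the change itself in limma. Against 0 h 61 genes passed, and against the mean of the other 4 times 58 genes passed. Named genes against 0 h were adenosylhomocysteinase with a change of 0.50, GRP1A with -1.47, elongation factor 1-alpha on chromosome 1 with -1.27, the S30 gene on chromosome 3 with -1.05 and the 6 kDa subunit of ATP synthase with -1.04. Named genes against the other times were polyubiquitin with 0.50, ART3 with -1.14, GRP1A with -1.08, elongation factor 1-alpha on chromosome 1 with -0.97 and P3-1 with -0.76. The library medians moved the same way (0.16 at 15 min, 0.52 at 0 h and 0.73 at 2 h), and on the relative scale GRP1A did not pass in either test (adjusted p = 0.0524 against 0 h and 0.107 against the other times, limma), nor did ART3 against the other times (0.162).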

How the results depend on the processing

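Leaving out 1 library at a time gave 5 to 25 genes for the clone difference at 15 min (21 with all), 23 to 32 on the relative scale (34), 26 to 75 for the change since 0 h (61), 3 to 82 for the change against the other 4 times (58), and 0.0977 to 0.210 for the difference of the library medians (0.156). Chosen after seeing the data, leaving out NC replicate 1 and CR replicate 2 of 15 min together gave 7, and the change against the other times relative to the library median gave 38. Voom weights on the recovered reads gave 20 genes. With a replicate block the counts were 22, 32, 64 and 62. Deviations of same-numbered libraries from their group means correlated at -0.36, -0.45 and 0.10 at 15 min, and between -0.45 and 0.61 over all times. With 3 libraries per group these values cannot decide whether the numbers pair libraries. For named genes at 15 min 924 single-gene results of the alternatives kept direction and side of the threshold. These include list members that were not called with all libraries and so could not lose a call. Of the other results 45 lost the call, 9 gained it and 30 values that were not called moved across 0. No called value changed sign. The counting error of the least covered value at 15 min was 1.94%, and each group had 3 libraries of 1 clone.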

Other observations

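Genes that share a name allow the ratio of 2 copies to be read within a library, free of any shift of the library. Among 27 such genes there were 15 pairs, and at 15 min the ratios of the CR libraries did not overlap those of NC in 9 pairs (exact permutation p = 0.1 for each, the smallest that 3 against 3 allows; adjusted values cannot be lower). For L10 of the large subunit, the gene on chromosome 6 over that on chromosome 8 gave 1.25, 1.33 and 1.40 in CR and 0.961, 0.968 and 0.974 in NC. For histone H4, the gene on chromosome 2 over PaF106G0600024535.01 on chromosome 6 gave 1.14, 1.40 and 1.25 in CR and 0.747, 0.713 and 0.669 in NC. These pairs and the H4 pair on chromosome 6 (0.939, 0.980 and 1.13 in CR and 0.764, 0.681 and 0.634 in NC) were the 3 that also did not overlap over all 15 CR and 15 NC libraries. Both of these H4 pairs have PaF106G0600024535.01 as the divisor, so they are not independent. For L10 the ratio over all times lay between 1.25 and 1.55 in CR and between 0.922 and 1.14 in NC. For S15a-1, chromosome 2 over chromosome 6, the ratios at 15 min were 2.27, 2.05 and 2.39 in CR and 3.15, 3.01 and 2.85 in NC, with overlap over all times. The ratio of the decarboxylase genes, chromosome 1 over chromosome 3, was 1.13, 1.19 and 1.09 in CR and 0.933, 1.05 and 1.01 in NC. The labels do not say how reads common to copies were assigned, and the part of that step in these ratios was not tested.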
